A study of Caenorhabditis elegans with 2 samples.

Results

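The genes examined encode the nematode counterparts of TFEB and of the Myc, Mad, Mondo and Max factors, 6 of the 19973 protein-coding genes on the 6 nuclear chromosomes of Caenorhabditis elegans. They are hlh-30, mml-1, mxl-2, mdl-1, mxl-1 and mxl-3, and they were listed by name with earlier results of the same peak lists known, so their region counts, ranks and signals are given as a description with no test. The question was where the zinc finger factor PQM-1 was found on chromatin in and around them. PQM-1 acts in insulin signalling, and TGATAAG, known as the DAF-16 associated element, is the sequence it is best known for. A region was assigned to a gene when its summit lay in the gene body or up to 2000 bp upstream of any annotated transcript start, called the gene window below.

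The data were ChIP-seq peak lists from late embryos of strain OP201, genotype unc-119(tm4063) III; wgIs201. This hermaphrodite line carries a stably expressed, integrated transgene that fuses a C-terminal GFP-FLAG tag to PQM-1, and embryos were collected 2 h after synchronization by egg bleaching. Chromatin of whole embryos was sonicated and precipitated with an antibody against GFP, so all cell types are mixed and binding cannot be placed in one tissue. The series holds 1 group of 2 samples labelled as biological replicates, both in the unc-119 mutant background, and a control experiment named in the labels is not analysed here.

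HLH-30, the orthologue of TFEB, is a basic helix-loop-helix leucine zipper factor that activates autophagy, lysosome and lipase genes and is held in check by the nutrient sensor TOR. MML-1, which resembles mammalian Mondo and Myc-like factors, works as a dimer with MXL-2, and MDL-1, which resembles Mad, works as a dimer with the Max-like MXL-1. MXL-3, another Max-like factor, represses lysosomal lipase genes in fed worms and acts against HLH-30 there. Proteins of this kind bind E-boxes, of which CACGTG is the best known.

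PQM-1 regions were unevenly spread over the 6 genes. The authors' pooled list of 27694 regions put 24 in the window of hlh-30, 4 in that of mdl-1, 2 each in those of mml-1 and mxl-3, 1 in that of mxl-2 and 0 in that of mxl-1. Thus 5 of the 6 genes had a pooled region, where 65.8% of all protein-coding genes did. A reproducible region was assigned to hlh-30 alone, 1 of 6 genes, where 4.2% of all protein-coding genes had one. The exact 95% interval of that share (16.7%) runs from 0.421 to 64.1%. With 6 genes listed by name this interval is wide by construction and is no test against the share of all genes. The reproducible list is the authors' set of 669 regions and consists of the 669 strongest pooled regions, ordered by signal. Signal and q-value are the authors' own values for each region, they are not scaled between lists, and a rank in one list shows no change when set beside a rank in a list of another length. The pooled and replicate lists also hold weak calls, with pooled q-values from 0.00726 to 0.929 at these genes, and the depth of the libraries is unknown.

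Most of the regions were weak. Of the 33 pooled regions at the 6 genes, 1 had q no higher than 0.01 and 6 had q no higher than 0.05, and their median rank was 6460. At the stricter limit 1 of the 6 genes, hlh-30, had a region in the pooled list and in each replicate's list, where 7.21% of all protein-coding genes did in the pooled list, 5.62% in replicate 1 and 7.49% in replicate 2. Several overlap, so the 33 regions form 25 separate stretches, 17 of them at hlh-30. By position 9 summits lay upstream and 24 inside the genes, 17 of these in introns of every transcript they touched. Replicate 1's list, with 28996 regions, placed 36 regions at all 6 genes, where 68.7% of genes had one. Replicate 2's list, with 23228 regions, placed 30 at 5 of the genes, where 62.1% of genes had one. The summit of 19 pooled regions (57.6%, exact 95% interval 39.2 to 74.5) lay in a region of both replicates, a share that was 39.8% over all pooled regions and 99.9% over the reproducible ones. Intervals cover counting error only, and overlapping regions of 1 gene are not independent.

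**Figure D1:**
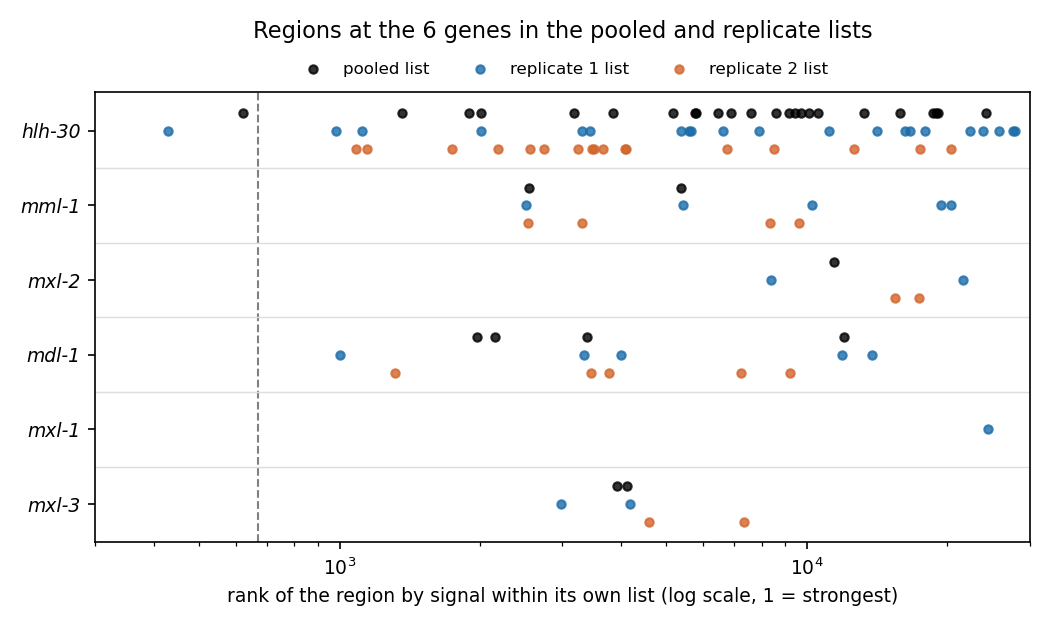
Each point is 1 region in the window of the gene named on the vertical axis, placed by its rank by signal within its own list on a log axis (rank 1 is the strongest). Black points are the pooled list, blue replicate 1 and orange replicate 2, and the dashed line marks rank 669, where the reproducible list ends. A black point lies left of the line at hlh-30 alone, at rank 620, and mxl-1 has a single point, of replicate 1 at rank 24456.

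hlh-30 (WBGene00020930) lies on chromosome IV from 4014793 to 4034951 on the minus strand in build ce11 (WBcel235), with 13 transcripts and 10 transcript starts, and its window of 22159 bp is long beside the median of 4027 bp over all protein-coding genes. Of the 196 protein-coding genes with a window at least as long, 98.5% had a pooled region and 11.2% a reproducible one. At 1.08 pooled regions per kb, hlh-30 was nevertheless densely covered, since 1.61% of all protein-coding genes had as many per kb and the median was 0.256. Rank 620 was reached by the strongest pooled region of 3.88% of the genes.

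The strongest region at hlh-30 ran from 4019768 to 4020197 with its summit at 4019983, in an intron of 7 transcripts and 939 bp upstream of the start at 4019044 that shorter transcripts use. Its pooled signal was 84.54 (q = 0.00726). Replicate 1 gave a region of signal 44.22 there (rank 429, q = 0.0035) and replicate 2 one of signal 40.6 (rank 1082, q = 0.00693). Both replicates therefore placed their own strongest hlh-30 region at this spot, with summits 42 bp apart, and both summits fell on the small annotated noncoding RNA gene W02C12.4. In replicate 2 the region lay outside the 669 strongest. The last region in the reproducible list had a signal of 82.03 and the first one outside it a signal of 82.0, so the hlh-30 region was close to the end of that list.

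The sequence around this summit is shown because it is the reproducible site of the group, and none of the E-box, TGATAAG or GATAA matches that were searched fell within 100 bp of its summit. It covers chrIV:4019883-4020083, plus strand, from the RefSeq genome of ce11, and capitals mark a GA repeat in which 3 overlapping matches to GAGAGAGA lie. The nearest of them is centred 33.5 bp from the summit.
hlh-30, rank 620: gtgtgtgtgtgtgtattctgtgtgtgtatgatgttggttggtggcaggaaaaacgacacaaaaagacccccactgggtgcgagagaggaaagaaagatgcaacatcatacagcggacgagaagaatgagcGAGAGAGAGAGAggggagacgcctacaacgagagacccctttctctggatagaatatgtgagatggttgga
GAGAGAGA, searched on both strands, stood within 100 bp of 4.02% of all pooled summits and 12.1% of the reproducible ones, and in 2.96% of 29773 windows of the same length just upstream of protein-coding transcript starts. Of the 33 regions at the 6 genes this was the sole one with the repeat (3.03%). A match of letters is a description and not a binding site.

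Of the next 3 pooled regions at hlh-30, those of rank 1361 and 2004 sat beside internal transcript starts and that of rank 1892, described further on, lay 1431 bp from the nearest start. The one with its summit at 4028360 (pooled rank 1361, signal 62.97, q = 0.0114) lay 233 bp upstream of the start at 4028127. Replicate 1 had it at rank 3302 (signal 23.62, q = 0.124) and replicate 2 at rank 1143 (signal 39.75, q = 0.00832), so its q-value was below 0.01 in replicate 2 alone. The region at 4027176 had pooled rank 2004 and signal 55.0 (q = 0.0337) and lay 113 bp upstream of a start. Replicate 1 placed its summit at the same base (rank 3443, signal 23.32) and replicate 2 placed it 4 bp away (rank 2181, signal 32.01), so the position was shared although neither signal was high. Within 100 bp of that summit stood GTAAACA, the core sequence that forkhead factors such as DAF-16 recognise, which 4 of the 33 regions held (12.1%), against 2.27% of all pooled regions, 2.84% of the reproducible ones and 3.4% of the windows upstream of starts. All 4 were at hlh-30. The others had pooled ranks 3172, 9700 and 19101 (q = 0.118, 0.591 and 0.858), and replicate 1 had no region at their summits. The difference in shares was not tested.

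TGATAAG occurred at 2 of the 33 pooled regions (6.06%, exact 95% interval 0.743 to 20.2), both in introns of hlh-30, against 6.03% of all pooled regions, 10.0% of the reproducible ones and 6.68% of the windows upstream of starts. The element contains GATAA, which 8 of the 33 regions held (24.2%), against 35.8% of all pooled regions, 37.4% of the reproducible ones and 44.5% of the windows upstream of starts. At the stronger site (summit 4029558, rank 1892, signal 56.25, q = 0.0256) its centre was 50 bp from the summit. Replicate 1 had the region at rank 2005 (signal 27.22, q = 0.0397) and replicate 2 at rank 2560 (signal 30.33, q = 0.0912). The site at 4022451 (rank 3172, signal 46.86, q = 0.118) had rank 3238 (signal 28.15) in replicate 2. Its summit lay in no region of replicate 1, but an overlapping region of replicate 1, from 4022469 to 4022898 (rank 1117, signal 32.5, q = 0.0112), contained the element at 146 bp from its own summit. Both stretches are shown, on the plus strand of ce11 at chrIV:4029500-4029608 and chrIV:4022401-4022546, with TGATAAG in capitals.
hlh-30, rank 1892: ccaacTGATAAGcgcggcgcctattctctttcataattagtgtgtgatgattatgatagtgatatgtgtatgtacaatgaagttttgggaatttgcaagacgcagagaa
hlh-30, rank 3172: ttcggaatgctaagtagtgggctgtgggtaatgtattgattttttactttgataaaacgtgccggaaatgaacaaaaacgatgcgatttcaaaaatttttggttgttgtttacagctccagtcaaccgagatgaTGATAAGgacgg
The hlh-30 window held 4 TGATAAG in all, 0.181 per kb, where the median gene held 0.15, and 2 of the 4 lay within 100 bp of a pooled summit. Over the 6 nuclear chromosomes 10.3% of 18686 matches did. Pooled regions were denser in the hlh-30 window, at 1.08 per kb against 0.276 over the genome, and the part of that was not tested.

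The replicates shared some of the hlh-30 regions and not others. Of its 24 pooled regions 16 had their summit in a region of replicate 1, 18 in one of replicate 2, 11 in both and 1 in neither. Over all pooled regions 39.8% had their summit in a region of both, so sharing in part was not particular to hlh-30. A region of replicate 1 at 4016978, in a coding exon, reached rank 984 (signal 33.85, q = 0.00864) and another at 4022684 reached rank 1117 (signal 32.5, q = 0.0112), and replicate 2 had no region at either summit. The corresponding pooled regions ranked 6866 and 18945. Conversely, replicate 2 had a region at 4019020, 19 bp from a start, at rank 1744 (signal 34.31, q = 0.0232), where replicate 1 had none and the pooled rank was 8573. At each of these 3 summits 1 replicate alone had a region. The start farthest upstream had a region 49 bp before it with a pooled rank of 5161 and a signal of 39.67 (q = 0.286), lower than the regions of rank 1361 and 2004 but higher than the pooled region at 4019020 (signal 33.05).

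**Figure D2:**
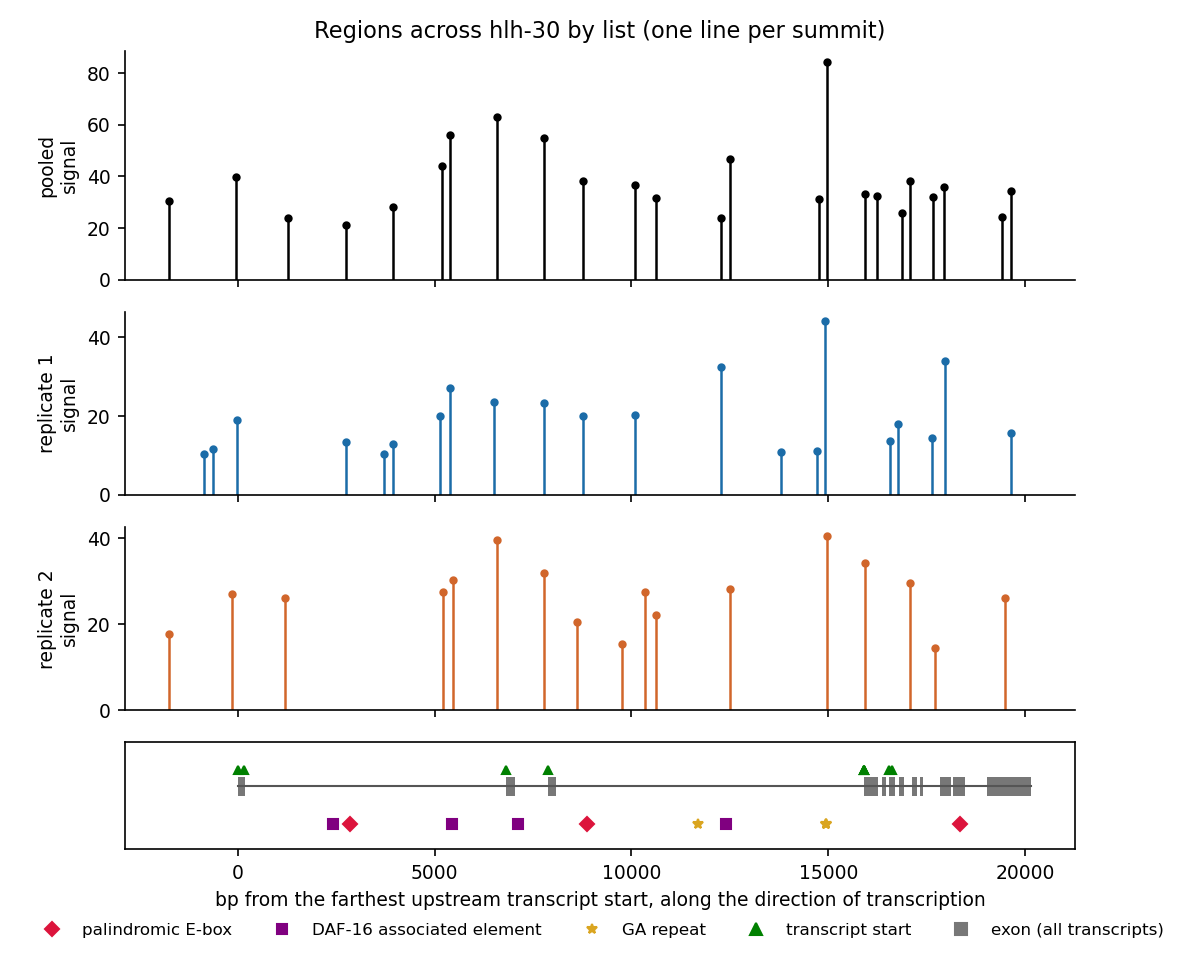
Each vertical line is 1 region in the hlh-30 window, placed by the distance of its summit in bp from the farthest upstream transcript start along the direction of transcription, and its height is the authors' signal in the pooled list, replicate 1 or replicate 2 (separate axes, each from 0). The lowest panel gives the exons of all transcripts, the transcript starts and the matches to CACGTG (palindromic E-box), TGATAAG (DAF-16 associated element) and GAGAGAGA (GA repeat). The tallest line in all 3 lists, with a pooled signal of 84.54, stands at the GA repeat before the cluster of 3′ exons.

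MML-1 and MXL-2 form the Mondo-type dimer. mml-1 (WBGene00003378) lies on chromosome III from 7370130 to 7374731 on the minus strand and had 2 pooled regions, both upstream of its start. The stronger, at 7376485 and 1754 bp upstream, had pooled rank 2544, a signal of 50.64 and a q-value of 0.0627. Replicate 1 gave rank 2506 (signal 25.56, q = 0.0704) and replicate 2 rank 2535 (signal 30.4, q = 0.0894), with summits 64 bp apart, so it was listed in both, with q-values above 0.05. It lay 246 bp inside the edge of the window, and with a window reaching 1000 bp upstream the strongest mml-1 region is the one at 7375669, 938 bp upstream (rank 5371, signal 39.15, q = 0.302). At the latter, replicate 1 had a region at rank 5442 (signal 20.3) while replicate 2 had overlapping regions over that summit, one at rank 3305 (signal 27.98) with its summit 205 bp away and one at rank 9616 (signal 19.61) with its summit 32 bp away.

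CACGTG stood 72.5 bp from the summit of the stronger mml-1 region in the pooled list and in replicate 2. In replicate 1 no CACGTG lay within 100 bp of the summit of rank 2506. The same match lay 65.5 bp from the summit of an overlapping replicate 1 region of rank 10248. The stretch from the pooled list, chrIII:7376435-7376565 on the plus strand of ce11, is shown as the E-box site of this gene, with CACGTG in capitals.
mml-1, rank 2544: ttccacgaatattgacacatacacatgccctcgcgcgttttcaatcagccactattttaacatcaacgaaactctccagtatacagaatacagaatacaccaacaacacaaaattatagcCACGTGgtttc
The mml-1 window held 3 CACGTG, 0.454 per kb, a density that 11.5% of all protein-coding genes reached, and 1 of them lay within 100 bp of a pooled summit. Another of the 3, in the longer form GTCACGTG on the minus strand, lay within 100 bp of a region that replicate 1 alone listed as separate, at rank 10248 (signal 16.36, q = 0.55).

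mxl-2 (WBGene00003510, chromosome III from 186949 to 188131, minus strand) had 1 pooled region, at 188450 and 319 bp upstream of its start, with rank 11419, a signal of 29.67 and a q-value of 0.661. Over all protein-coding genes 40.3% had a region that ranked as high. Replicate 1 had it at rank 8396 (signal 17.6, q = 0.453) and replicate 2 at rank 17390 (signal 15.54). The strongest mxl-2 region of replicate 2 was elsewhere, at 187153 in a coding exon (rank 15467, signal 16.32, q = 0.829), 1217 bp from that of replicate 1. The region also lies upstream of the divergent gene ubc-20, so it cannot be given to mxl-2 alone. No CACGTG or TGATAAG stood within 100 bp of a summit in this window, which held 1 CACGTG.

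MDL-1 and MXL-1 form the Mad-type dimer, and their genes had the most and the fewest pooled regions per kb of the group. mdl-1 (WBGene00003163) lies on chromosome X from 6742351 to 6743899 on the plus strand, and its window of 3549 bp held 4 pooled regions, 1.13 per kb, a density that 1.23% of all protein-coding genes reached. The strongest, at 6742103 and 248 bp upstream of the start, had rank 1964, a signal of 55.35 and a q-value of 0.0323, and 10.7% of genes had a region that ranked as high. In the replicates the regions covering that summit had rank 1001 (signal 33.65, q = 0.0105) in replicate 1, with the summit 166 bp away, and rank 3775 (signal 26.91) in replicate 2, at the same base. An overlapping pooled region at 6742307, 44 bp upstream of the start, had rank 3390 and a signal of 45.84 (q = 0.137). In the intron a region at 6743127 had pooled rank 2149 and a signal of 53.54 (q = 0.0398). Both replicates placed their summit of the intronic region at that same base, at rank 3330 (signal 23.56) in replicate 1 and rank 3445 (signal 27.68) in replicate 2. The remaining pooled region, at 6740379, lay 28 bp inside the edge of the window (rank 12036, signal 29.12, q = 0.679). Replicate 1 had it at rank 4007 (signal 22.26), and replicate 2 had no region at its summit. The density thus counts this weak region, and the 4 regions form 3 separate stretches.

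The strongest mdl-1 regions of the replicates did not coincide. Replicate 1's, the region of rank 1001, had its summit at 6742269, 82 bp upstream of the start. Replicate 2's was at 6742893 in a coding exon, with rank 1312, a signal of 37.97 and a q-value of 0.0111, and replicate 1 had no region at that summit. The summits were 624 bp apart. All of these had q-values above 0.01, and no region inside the mdl-1 window was in the reproducible list.

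A pair of reproducible regions lay near mdl-1 but outside its window. One had its summit at 6743989, 90 bp past the 3′ end of the gene and over the noncoding RNA gene R03E9.10, and 126 bp of the region overlapped the window. It had pooled rank 362, a signal of 103.3 and a q-value of 0.00415, with rank 1797 (signal 28.13, q = 0.0276) in replicate 1 and rank 243 (signal 70.06, q = 0.00465) in replicate 2. The other, at 6737795 and 4556 bp upstream of the start, had pooled rank 334, a signal of 106.4 and a q-value of 0.0045, with rank 301 (signal 48.91) in replicate 1 and rank 410 (signal 58.08) in replicate 2. Its distance to the start of mdl-1 was close to that to the start of R03E9.2, 4494 bp away. Both held CACGTG within 100 bp of the summit, as did 7.03% of all reproducible regions. Counted by overlap with the window, or with 5000 bp upstream, 2 of the 6 genes would have a reproducible region, against 4.55% and 6.24% of all protein-coding genes. These regions were looked at after the values inside the window had been seen.

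Matches to CACGTG were dense at mdl-1. Its window held 7 CACGTG, 1.97 per kb, against a median of 0.105 over all protein-coding genes and 0.177 over the 6 nuclear chromosomes, and 7 of the 19973 genes, mdl-1 included, had as many per kb (0.035%). One of the 7 lay within 100 bp of a pooled summit, that of rank 3390, at 78.5 bp, and it was 40.5 bp from the replicate 1 summit of rank 1001. Of the 7, the one nearest the replicate 2 summit of rank 1312 was another, 91.5 bp away. The stretches below are on the plus strand of ce11 with CACGTG in capitals, and are shown to set the promoter E-box (chrX:6742214-6742243) beside those of the replicate 2 region (chrX:6742843-6742992), the region past the 3′ end (chrX:6743939-6744047) and the far upstream region (chrX:6737742-6737845).
mdl-1, rank 3390: tcatgcgaggcgCACGTGcatacacacaca
mdl-1, replicate 2 rank 1312: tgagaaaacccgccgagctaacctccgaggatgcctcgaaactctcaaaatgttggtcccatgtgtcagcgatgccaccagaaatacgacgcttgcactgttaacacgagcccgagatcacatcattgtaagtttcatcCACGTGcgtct
mdl-1, past the 3′ end, rank 362: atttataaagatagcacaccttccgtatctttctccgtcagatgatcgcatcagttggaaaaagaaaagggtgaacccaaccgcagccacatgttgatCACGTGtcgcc
mdl-1, far upstream, rank 334: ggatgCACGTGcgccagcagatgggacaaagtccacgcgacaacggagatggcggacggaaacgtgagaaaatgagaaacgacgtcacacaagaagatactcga
The mdl-1 window held no TGATAAG.

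mxl-1 (WBGene00003509, chromosome V from 11244839 to 11245926, plus strand), the partner of mdl-1, had no region in the pooled list or in replicate 2. Replicate 1 listed 1 region at 11244924, 85 bp inside the first exon, with rank 24456, a signal of 11.1 and a q-value of 0.909. No CACGTG or TGATAAG lay in its window of 3088 bp, and the first pooled summit beyond the upstream edge was 3450 bp farther away. A region absent from these lists was not called, and the part of depth in that, which is unknown, was not tested.

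mxl-3 (WBGene00003511) lies on chromosome X from 13349639 to 13350804 on the minus strand and had 2 regions in the pooled list and in each replicate's list, and 0 in the reproducible list. The upstream one, at 13350969 and 165 bp before the start, had pooled rank 3921, a signal of 43.72 and a q-value of 0.179, and a region of that rank was reached by 18.4% of genes. It had rank 4192 (signal 21.94, q = 0.187) in replicate 1 and rank 7333 (signal 21.58, q = 0.498) in replicate 2. The other, at 13349727 in the 3′ untranslated region, had pooled rank 4130 and a signal of 42.99 (q = 0.195), with rank 2974 (signal 24.39, q = 0.1) in replicate 1 and rank 4593 (signal 25.2, q = 0.274) in replicate 2. The strongest mxl-3 region of each replicate was thus the one at the 3′ end, with summits 96 bp apart, whereas the pooled list ranked the upstream one slightly higher. Neither was strong by q-value in any list. A stronger region lay outside the window, at 13355064 and 4260 bp upstream of the start (pooled rank 1037, signal 69.51, q = 0.0082). That region had rank 2809 (signal 24.8, q = 0.0892) in replicate 1 and rank 889 (signal 43.4, q = 0.00506) in replicate 2, and was not in the reproducible list.

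The mxl-3 window held 2 CACGTG, 0.632 per kb, a density that 5.36% of genes reached. The one in the 3′ untranslated region was centred 48.5 bp from the pooled summit there. Its 30 bases, chrX:13349761-13349790 on the plus strand of ce11, are shown with CACGTG in capitals because it was the match to CACGTG nearest to a pooled summit in the group.
mxl-3, rank 4130: attcttaaagtaCACGTGaaacccatgtat

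**Figure D3:**
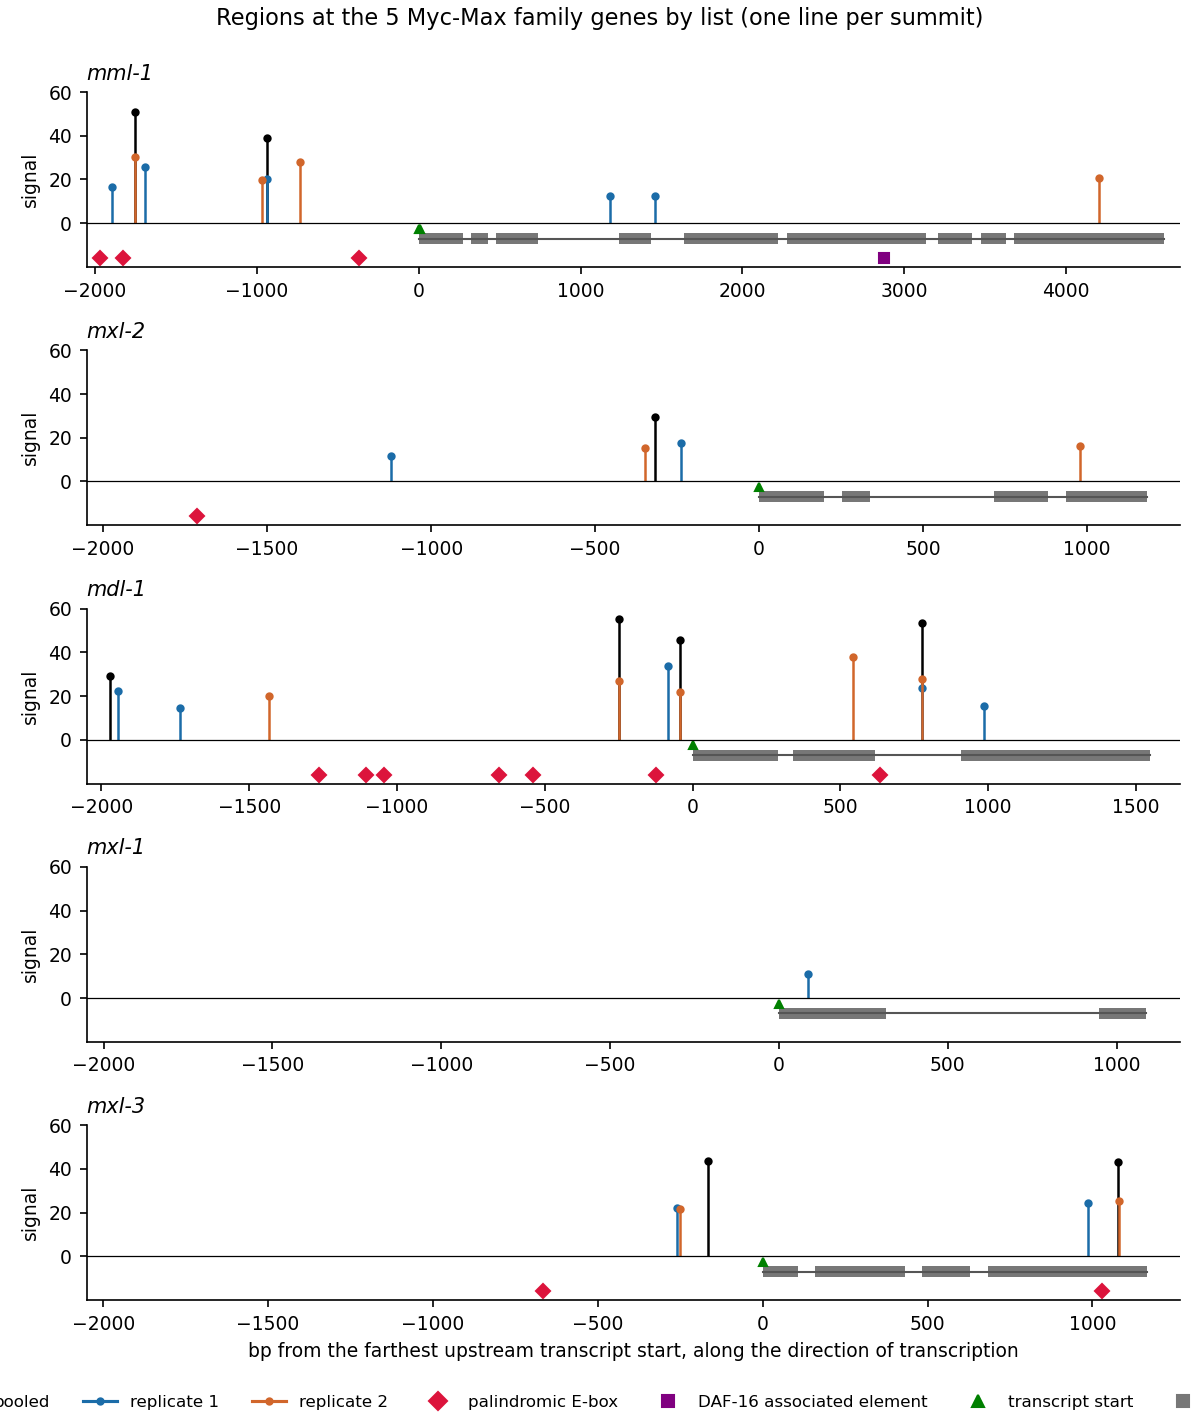
Each line is 1 region in the window of the gene named above the panel, placed by the distance of its summit in bp from the farthest upstream transcript start along the direction of transcription, with the authors' signal as its height (black pooled, blue replicate 1, orange replicate 2, not scaled between lists). Exons, transcript starts and matches to CACGTG (palindromic E-box) and TGATAAG (DAF-16 associated element) are drawn below 0. No pooled line exceeds a signal of 55.35, mxl-1 has none, and 7 matches to CACGTG fall in the mdl-1 panel.

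Across the group, most matches to CACGTG lay more than 100 bp from a pooled summit. The 6 windows held 16 CACGTG, of which 4 lay within 100 bp of a pooled summit. Over the 6 nuclear chromosomes 8.53% of 17729 matches did, which is a lower share. Pooled regions were themselves denser at 5 of the 6 genes, with 0.303 to 1.13 per kb against 0.276 over the genome, and mxl-1 had none. Denser summits bring more matches within 100 bp, and the part of that in the difference was not tested. Seen from the regions, 4 of the 33 (12.1%, exact 95% interval 3.4 to 28.2) held CACGTG within 100 bp, 1 each at hlh-30, mml-1, mdl-1 and mxl-3, against 5.13% of all pooled regions, 7.03% of the reproducible ones and 4.08% of the windows upstream of starts. The hlh-30 region with the E-box was the weakest of its 24, at rank 24220 (signal 21.08, q = 0.929). In none of the 4 was the whole E-box within 50 bp of the summit. Any E-box, CANNTG, of which CACGTG is one form, stood at 15 of the 33 regions (45.5%) and at 56.0% of all pooled regions and 55.0% of the reproducible ones. The longer forms TCACGTGA and GTCACGTG stood at 0 of the 33. TCACGTGA was found at 0.361% of all pooled regions, 1.64% of the reproducible ones and 0.568% of the windows upstream of starts, and GTCACGTG at 0.444%, 1.05% and 0.537%.

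The remaining sequences searched, all on both strands, gave these counts. CACGAG stood at 4 of the 33 regions (12.1%), 2 at hlh-30 and 2 at mdl-1, and at 6.46% of all pooled regions, 11.2% of the reproducible ones and 4.73% of the windows upstream of starts. The run TTTTTTT stood at 10 (30.3%), and at 28.1%, 21.1% and 42.9% of the same sets. TTCNNGAA, part of the heat shock element, stood at 2 (6.06%), and at 10.6%, 8.52% and 12.5%. These shares rest on 33 regions, several of them overlapping, and were not tested

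PQM-1 regions at other genes of the pathway that HLH-30 serves were counted in the same way for lists chosen by function, with earlier results of these data known. Of 82 listed lipase, autophagy, lysosome and TOR genes, 10 (12.2%) had a reproducible region, where 4.2% of all protein-coding genes did. With the 669 strongest regions of a single replicate, 6 (7.32%) had one in replicate 1, where 3.94% of genes did, and 13 (15.9%) in replicate 2, where 4.13% did. The median window was 3851 bp for the lipase, 4198 bp for the lysosome, 4795.5 bp for the autophagy and 6831.5 bp for the TOR genes, against 4027 bp over all genes, and the part of window length in these shares was not tested.

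Autophagy genes had 4 of 26 (15.4%). They were atg-7, which encodes the enzyme that activates ubiquitin-like autophagy proteins (rank 183, signal 129.9), epg-9 of the initiating kinase complex (rank 328, signal 107.1), atg-18, which binds phosphoinositides (rank 427, signal 97.13), and lgg-1, the Atg8-like protein of the autophagosome (rank 442, signal 96.09). The epg-9 region, in an intron, held CACGTG in its TCACGTGA form, and the lgg-1 region, 888 bp upstream, held GAGAGAGA. The atg-7 region lay 1977 bp upstream of atg-7 and 703 bp upstream of klc-1, so it stood nearer to the latter.

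Lysosome and V-ATPase genes had 3 of 30 (10.0%), the proton pump genes vha-8 (rank 472, signal 93.94), unc-32 (rank 477, signal 93.8) and vha-13 (rank 575, signal 86.81). Those of vha-8 and unc-32 stood nearer to the starts of C17H12.2 and lin-9, and the summit of that of vha-13 lay over the protein-coding gene cept-2. asp-1, which encodes an aspartic protease, had a region with TGATAAG at rank 677 (signal 81.57), just outside the reproducible list. TOR and nutrient sensing genes had 3 of 18 (16.7%): rheb-1, the small GTPase that activates TOR (rank 415, signal 98.62), aak-2, an AMP-activated kinase subunit (rank 549, signal 88.54, with CACGTG), and lmtr-3 of the Ragulator complex (rank 622, signal 84.48). rict-1, of the second TOR complex, came next at rank 775 (signal 77.31). The rheb-1 summit was 299 bp upstream of rheb-1 and 279 bp upstream of spk-1, and that of rict-1 was nearer to the start of gfm-1. For none of rheb-1, aak-2 and lmtr-3 was the region among the 669 strongest of replicate 1, where their ranks were 882, 1395 and 2428.

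The lipase genes had 0 of 8 in the reproducible list, where 4.2% of all protein-coding genes had a region, and 8 genes are too few to tell 0 from that share. The strongest lipase region was that of lipl-2 at rank 685 (signal 81.24), 1597 bp upstream of lipl-2 and 263 bp upstream of ztf-7, with rank 8590 in replicate 1 and rank 402 in replicate 2. Those of lipl-5, lipl-3 and lipl-7 had ranks 2670, 4565 and 4921, and those of lipl-3 and lipl-7 were nearer to the starts of srw-107 and tkt-1.

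Of 35 other basic helix-loop-helix genes, 1 (2.86%) had a reproducible region, where 4.2% of all protein-coding genes did. It was hif-1, the hypoxia factor (rank 148, signal 139.5), with the region 1983 bp upstream of its start. hlh-11 (rank 984) and aha-1 (rank 987), the latter a partner of bHLH-PAS factors, came next and both held GAGAGAGA, and hlh-1, the muscle factor, followed at rank 3514. The aha-1 summit was nearer to the start of C25A1.15. In the pooled list 18 of the 35 (51.4%) had a region, where 65.8% of all protein-coding genes did. The difference between these genes and the 6 was not tested, since the members were chosen with the values known.

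**Figure D4:**
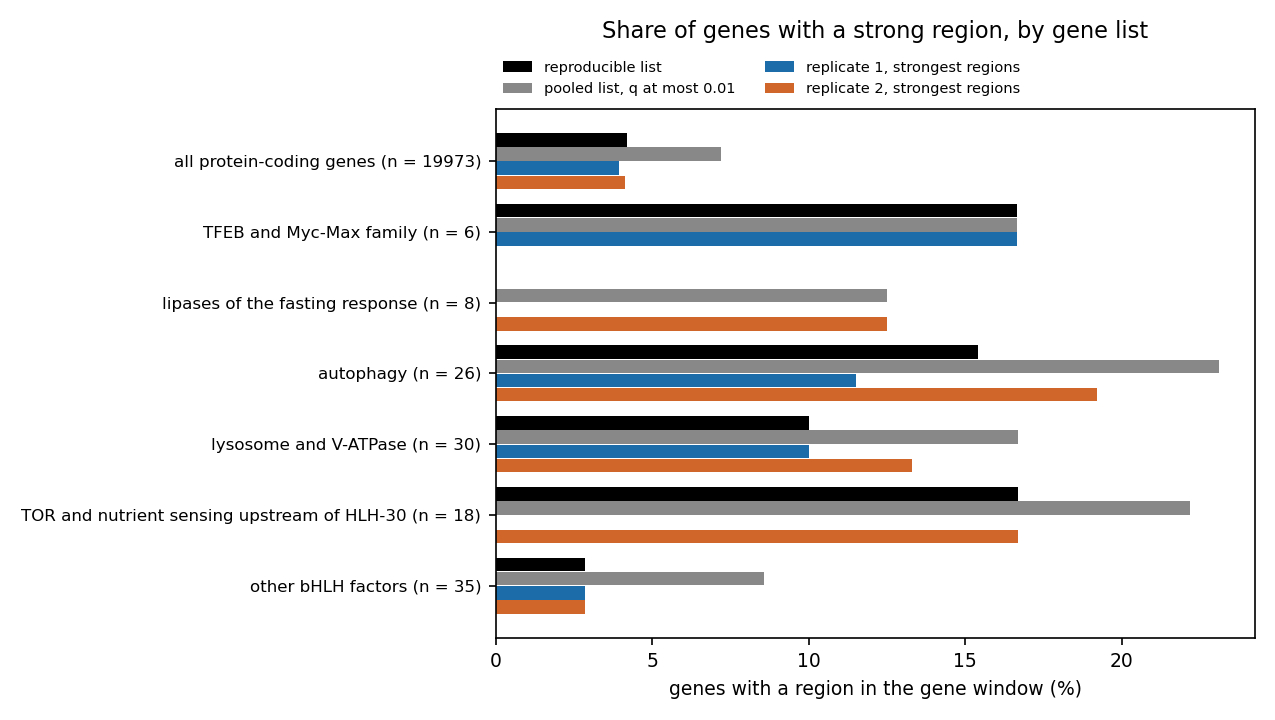
Bars give the share of genes in each list (vertical axis, with the number of genes) that have a region in the gene window, in percent from 0, for the reproducible list, pooled regions of q no higher than 0.01, and the 669 strongest regions of each replicate. All protein-coding genes are at 4.2% in the reproducible list, the autophagy list at 15.4%, the TOR list at 16.7% and the other basic helix-loop-helix genes at 2.86%. A missing bar stands for 0 genes.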

How the data were processed

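PQM-1-GFP was measured by ChIP-seq in 2 replicates of 1 group. The authors deposited peak lists per replicate, for the pooled replicates and, by irreproducible discovery rate on these, a reproducible list, per the README text deposited with them and the names of the lists. Each region carries a deposited signal and a −log10 q-value, both as the authors made them, while the deposited p-value column is unset. Not given in the sources used here are the aligner, the caller with its version, the threshold and the depth. The 4 lists in build ce11 were used, and the 4 in ce10 were not used here.

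Regions were ranked by signal within a list and assigned by summit to genes of Ensembl release 115 (WBcel235). A pooled region counted as found in a replicate when its summit base lay inside a region of that replicate. Sequences came from the RefSeq genome of WBcel235, and 11 elements were searched on both strands within 100 bp of summits. Intervals (exact Clopper-Pearson) came from scipy 1.17.1, tables from pandas 2.3.3 and numpy 2.4.6 under Python 3.11.15, and figures from matplotlib 3.10.9. The steps were tested on simulated regions with known assignments.

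Members, gene lists and elements were chosen with earlier results of these data known, so no test was made. Named were all 6 members in full, the listed genes with a reproducible region or otherwise the up to 4 with the strongest pooled regions, the 3 genes most like a member by Euclidean distance of log10 ranks over 3 lists, and the regions nearest each threshold. The mdl-1 regions outside its window, the mxl-3 region upstream and ubc-20 were named after their values were seen. Alternatives were other windows, overlaps, sequence widths, thresholds and single replicates.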

Additional observations from a re-analysis of the deposited data

How the results depend on the processing

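Of 77 alternative values for 13 results, 43 were labelled the same as the reported value and 34 moved. Counts were the same within a fixed fold range, and the percent of all genes within its exact 95% interval. A rank was the same when no further from the pooled rank than the standard deviation of the replicates' best ranks. Ranks with 1 replicate left out are those best ranks, so their labels say little about closeness. For mxl-2, 8396 and 15467 counted as the same as 11419, while for mml-1 2506 counted as moved from 2544. The 33 pooled regions became 11 with promoters alone. The count of 1 member with a reproducible region became 2 with 5000 bp upstream and 2 with regions overlapping the window, 0 in the stronger 50% of the list, and 0 to 1 with 1 replicate left out (0 without replicate 1). The 10 pathway genes became 6 with promoters alone, 2 in the stronger 50% and 16 at q of at most 0.01, and 6 to 13 with 1 replicate left out (6 without replicate 2). The count of 1 other basic helix-loop-helix gene became 0 with 1000 bp upstream and with promoters, 2 with 5000 bp and with overlap, and 3 at q of at most 0.01, and stayed at 1 to 1 with either replicate. The 4.2% of all genes became 3.41% with 1000 bp, 6.24% with 5000 bp, 2.75% with promoters, 4.55% with overlap, 2.13% in the stronger 50% and 7.21% at q of at most 0.01, and 3.94 to 4.13% with 1 replicate left out. The best rank of mml-1 became 5371 with 1000 bp and with promoters, that of mdl-1 334 with 5000 bp and 362 with overlap, and that of mxl-3 1037 with 5000 bp. With 1 replicate left out, ranks were 429 to 1082 for hlh-30, 2506 to 2535 for mml-1, 1001 to 1312 for mdl-1, 2974 to 4593 for mxl-3 and 8396 to 15467 for mxl-2, in lists of other lengths; mxl-1 has no pooled rank. The 19 regions found in both replicates became 7 when summits had to lie within 50 bp. The 4 regions with CACGTG became 0 within 50 bp, 7 within 200 bp and 7 over the whole region, and the 2 with TGATAAG became 0 within 50 bp. Other windows, thresholds and sequence widths count more or fewer bases or regions by construction; the cause of the moves with 1 replicate left out was not tested. No paired analysis was possible because there is 1 group. Depth is unknown and limits what an absent region shows.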

Other observations

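The genes with ranks most like those of hlh-30 (620 pooled, 429 in replicate 1 and 1082 in replicate 2), by the Euclidean distance of log10 ranks over the 3 lists, were mrps-18.C, T14B4.3 and T14B4.9. All of them had ranks of 624, 450 and 1093, at a distance of 0.0214. Equal ranks in all 3 lists are what regions assigned to several genes at once give, so these genes are not separate cases.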
